A study of Mus musculus with 23 samples.

Results

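The cytosolic ribosomal protein genes were followed in the aorta of ApoE-/- mice under chronic intermittent hypoxia (CIH) or normoxia (Nor). Members were taken by name: symbols that start with Rpl or Rps and a digit, plus Rpsa, Rplp0, Rplp1 and Rplp2, without pseudogenes of the -ps type and without the Rps6k kinases. Of 65956 gene-level probe sets on the arrays, 30638 carried 1 gene symbol, which gave 30176 genes, and 46 of these met the rule. For a gene with several probe sets the brightest was taken. The 46 genes comprised 15 proteins of the small (40S) subunit, 17 of the large (60S) subunit, the stalk protein Rplp0, 12 paralogs or retrocopies and Rps19bp1, which encodes a protein that binds Rps19 and is not itself part of the ribosome. A further 42 genes of the rule, Rplp1 and Rplp2 among them, lay only on 53 probe sets that carried several symbols, and those probe sets were kept apart.

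Total RNA of whole aorta was measured on 23 Clariom D arrays. All mice were male ApoE-/- animals on the C57BL/6J strain, 8 weeks old when purchased, and all received high-fat feed. ApoE deficiency and the diet were therefore shared by every group, the normoxia groups included. The groups were CIH 8W (CIH for 8 weeks, n = 5) with Nor 8W (n = 5), and CIH 12W (CIH for 12 weeks, n = 4) and CIH 8W+Nor 4W (CIH for 8 weeks, then normoxia for 4 weeks, n = 4) with Nor 12W (n = 5). CIH was given in a chamber where inspired oxygen fell and returned in short cycles during the daytime. The labels called the arrays biological replicates and gave nothing on pooling of animals.

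The ribosome is the particle that reads mRNA and joins amino acids into protein. Its 40S subunit holds the mRNA and the decoding site, its 60S subunit holds the site where the peptide bond is made, and the acidic stalk on the 60S subunit recruits translation factors. Ribosomal proteins are made in near equal amounts and from very abundant mRNAs. In mammals these mRNAs begin with a run of pyrimidines, the terminal oligopyrimidine (TOP) tract, through which mTOR signalling and its partner Larp1 adjust their translation and stability. Several translation factors have TOP mRNAs too, whereas the factors that assemble ribosomes in the nucleolus mostly do not.

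The sequence around the annotated transcription start is shown for 4 members that the results below turn on, 3 with a pyrimidine tract and 1 without. Each is 30 bases of the GRCm38.p6 build from the RefSeq table, 15 before the start and 15 from it on, written 5′ to 3′ on the strand of the gene, with the tract in capitals. The windows lie at chr7:3704026-3704055 (Rps9, plus strand), chr2:39005117-39005146 (Rpl35, minus strand), chr17:33955651-33955680 (Rps18, minus strand) and chr17:28328456-28328485 (Rpl10a, plus strand).
Rps9: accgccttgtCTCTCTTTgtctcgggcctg
Rpl35: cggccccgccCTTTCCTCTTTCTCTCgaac
Rps18: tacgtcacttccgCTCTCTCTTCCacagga
Rpl10a: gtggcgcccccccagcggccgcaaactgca
The search was for a C followed by at least 4 letters that were each C or T, on the strand of the gene only, with the C at most 5 bases from the annotated start. Capitals begin at the first such C. In Rps9 and Rpl35 the run of pyrimidines also holds the letters just before the capitals, t and cc. Of the 46 genes, 38 were in the promoter table and 16 of them (42.1%) held such a tract, against 19.7% of 27025 genes in the table. The share was 38.5% of 13 translation factors listed as having TOP mRNAs and 27.3% of 33 ribosome biogenesis factors. A missing match says only that these letters were not next to the annotated start.

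The mean log2 signal of the 46 genes over the arrays ran between 3.04 and 17.8. Rpl4 (17.8), Rpl12 (17.0), Rpl41 (16.8), Rps3a2 (16.2) and Rps26 (16.1) were brightest. Rpl3l (3.04), Rpl39l (3.26) and Rpl10l (3.60) were dimmest and were above the 95th percentile of background probe sets on none of the 23 arrays. Rpl3l is a paralog known from skeletal and cardiac muscle, and Rpl10l and Rpl39l are known from the testis. In all, 39 genes were above background on every array and 4 on some: Rps23rg1 and Rps19 on 22, Rps28 on 18 and Rps14 on 9. Array signals of different genes depend on their probes, so this order is one of signals and not of mRNA amounts. For 6 genes (Rpl12, Rpl27, Rpl31, Rpl35, Rpl41 and Rpl7a) the brightest probe set was numbered on another chromosome than the RefSeq gene, while 99.8% of 29757 genes compared had the same chromosome in both. Signals of such probe sets, and of the RefSeq pseudogenes Rpl6l, Rps3a2 and Rps3a3, cannot be assigned to 1 copy.

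The arrays correlated at 0.975 to 0.997, and 27.3 to 35.9% of probe sets were above background on each. The labelled tissue carried its markers: the mean of 10 smooth muscle genes was 14.3 to 15.8. A list of 13 sympathetic neuron genes had a mean over 6 on 5 arrays (CIH 8W replicates 3 and 5, Nor 8W replicate 3, Nor 12W replicates 3 and 4) and 4.76 to 5.61 on the other 18. Counts of called genes that moved by over 1.5 times when these 5 were left out are given both ways.

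**Figure D1:**
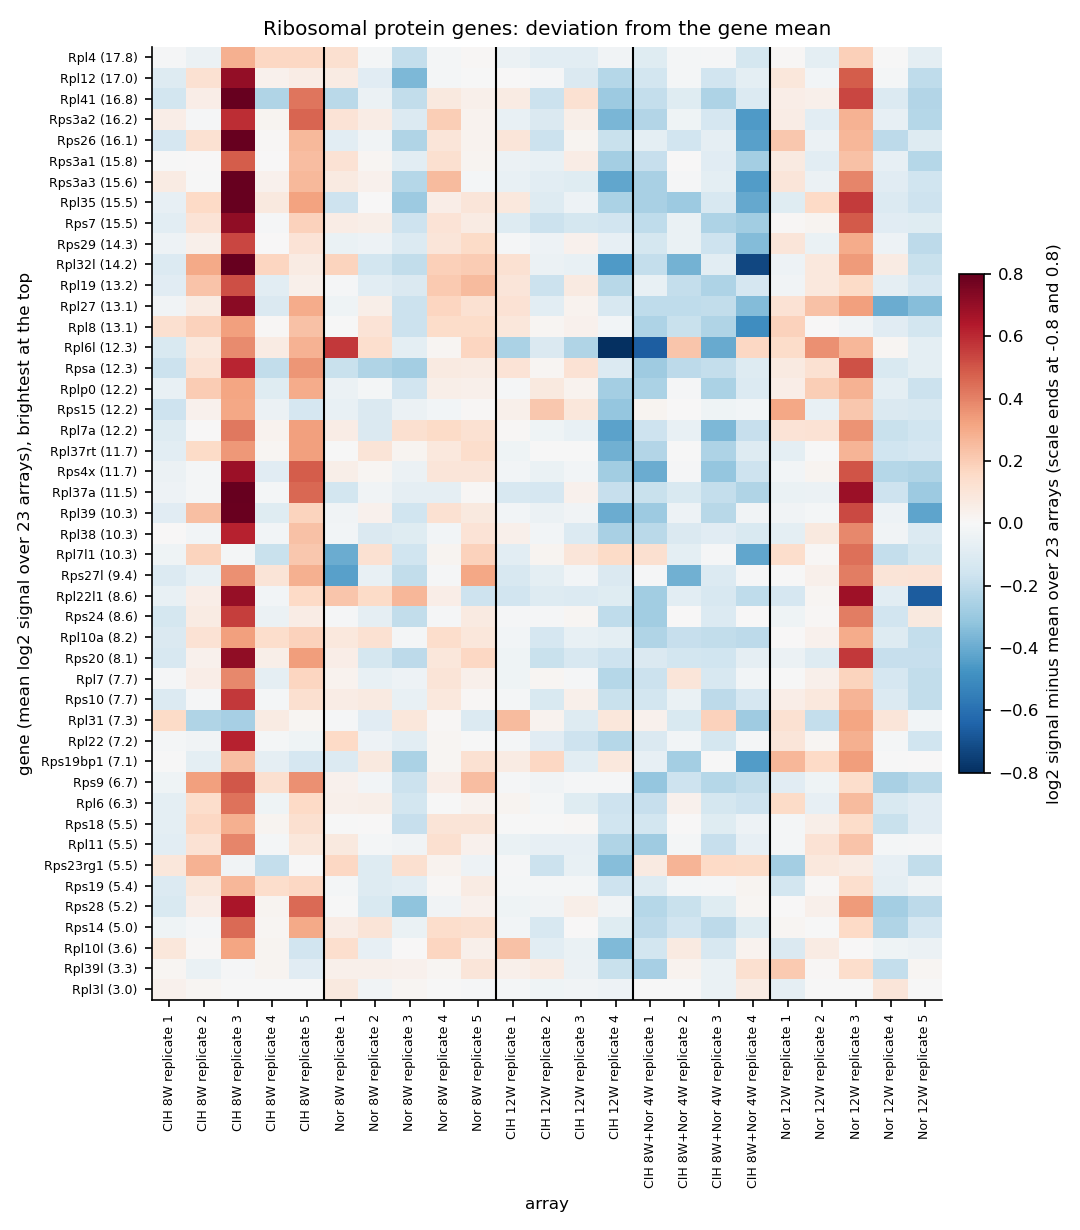
Deviation of each of 46 genes (rows, brightest at the top, with the mean log2 signal in parentheses) from its own mean in each of 23 arrays (columns, by group). Red is higher and blue lower than the gene mean on the log2 scale. CIH 8W replicate 3 and Nor 12W replicate 3 are red in most rows, and the 4 CIH 8W+Nor 4W arrays are mostly blue.

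The members moved together from array to array. Among the 30 genes with a mean over 8, the deviations from the group means had a median correlation of 0.715 over 435 gene pairs, and 433 pairs were above 0. The genes share the 23 arrays and their normalization. The correlation was not calculated for other genes of like signal or without the arrays that stood highest. It is therefore not shown to be particular to these genes, and signs counted over them below are not separate observations. Among the 16 dimmer genes the median was 0.421 over 120 pairs. The median within-group SD of the brighter members was 0.203, beside 0.227 for 6383 other genes with a mean over 8.

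The median deviation of the 30 brighter members from their own means was calculated for each array. It was -0.09, 0.07, 0.60, 0.00 and 0.25 in CIH 8W, against -0.01, -0.02, -0.16, 0.09 and 0.09 in Nor 8W. It was -0.02, -0.07, -0.01 and -0.22 in CIH 12W and -0.20, -0.07, -0.16 and -0.18 in CIH 8W+Nor 4W, against 0.03, 0.01, 0.37, -0.09 and -0.16 in Nor 12W. All CIH 12W and all CIH 8W+Nor 4W arrays were below 0, while the CIH 8W, Nor 8W and Nor 12W arrays lay on both sides of it. CIH 8W replicate 3, Nor 12W replicate 3 and CIH 8W replicate 5 stood highest, with 29 of 30 genes above their own mean on each. The 6383 other bright genes stayed between -0.06 and 0.12 on every array.

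The arrays that stood highest for ribosomal protein signal also stood out in cell type markers. CIH 8W replicate 3 had the highest mean of 14 macrophage genes (13.4, against 8.57 to 13.02 on the other arrays), of 8 endothelial genes (11.7) and of 6 T cell genes (6.52), and the lowest smooth muscle mean (14.3). Nor 12W replicate 3 had a smooth muscle mean of 14.5 and a sympathetic neuron mean of 9.54. Some other arrays with high sympathetic neuron or macrophage means had lower ribosomal protein deviations. Sympathetic neuron means were 11.59 in Nor 8W replicate 3 (deviation -0.16) and 8.52 in Nor 12W replicate 4 (deviation -0.09). They were 7.62 in CIH 8W replicate 3 (deviation 0.60) and 6.87 in CIH 8W replicate 5 (deviation 0.25). Macrophage means were 13.02 in CIH 8W replicate 2 (deviation 0.07) and 11.80 in CIH 8W replicate 5. Skeletal and cardiac muscle means were 5.07 in CIH 8W replicate 3, 5.13 in CIH 8W replicate 5 and 5.33 in Nor 12W replicate 3. They were 5.39 to 7.19 on the other arrays. Endothelial means were 11.01 in CIH 8W replicate 5, 10.95 in CIH 8W replicate 2 and 10.88 in Nor 12W replicate 3. The part of these cells in the ribosomal protein signal was not tested. In whole aorta, fewer cells of a type and less RNA per cell cannot be told apart.

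**Figure D2:**
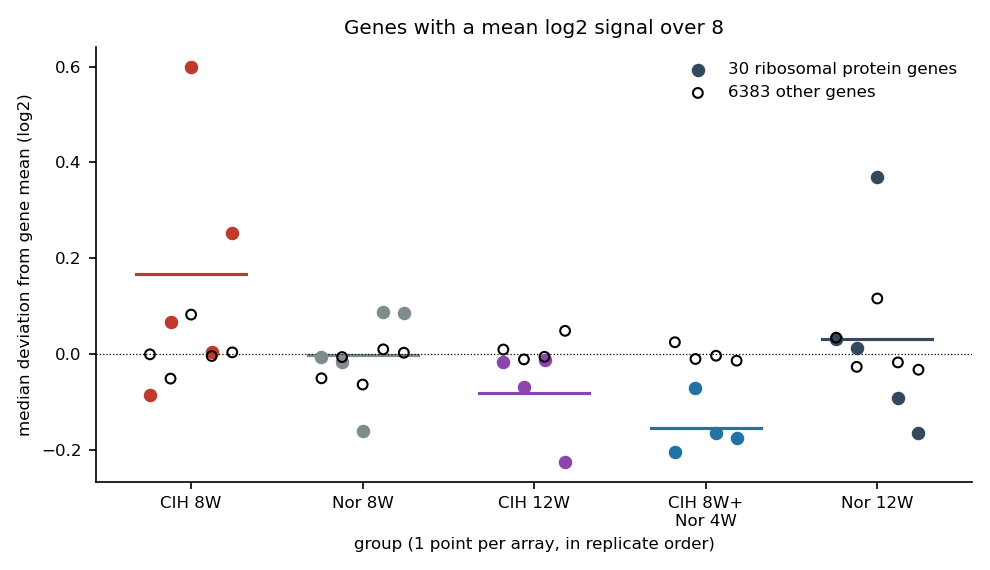
Median deviation from the gene mean (log2) on each array, for 30 ribosomal protein genes (filled) and 6383 other genes (open) with a mean log2 signal over 8, with a line at the group mean of the filled points. The filled points reach 0.60 in CIH 8W and lie between -0.20 and -0.07 in CIH 8W+Nor 4W, while the open points stay between -0.06 and 0.12.

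Over the 5 groups, 13 of 46 genes (28.3%) had a p under 0.05 in limma's moderated F-test, and 13.4% of all probe sets did. After Benjamini-Hochberg adjustment over 65956 probe sets, 1 gene remained, Rpl8 (adjusted p = 0.0334, limma F-test), against a background of 1.27%. Rps9 (adjusted p = 0.0641) and Rpl10a (adjusted p = 0.132) followed in the same F-test. Without CIH 8W+Nor 4W replicate 4 the F-test count was 6.

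The F-test pointed at no pair of groups, so 2 comparisons were added after its result was seen: CIH 8W+Nor 4W vs. CIH 8W, which sets the aorta 4 weeks after the end of CIH beside the aorta at its end, and CIH 12W vs. CIH 8W. Both also differ by 4 weeks of age and diet. A gene was called at an unadjusted limma p under 0.05 and a fold change over 1.1, as in all comparisons below.

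The clearest difference lay between CIH 8W+Nor 4W and CIH 8W. In CIH 8W+Nor 4W 29 of 46 genes fell (63.0%, background 6.78%) and 0 rose (background 5.10%). Among genes with a mean over 8, 22 of 30 members fell and 0 rose, beside 791 and 621 of 6383 other genes. The median of the 46 log2 differences was -0.30, with 44 below 0, and that of all probe sets was 0.01. Of the 6383 other genes 3253 were below 0. Both subunits took part, with 12 of 15 40S genes, 12 of 17 60S genes, Rplp0 and 4 of 12 paralogs or retrocopies lower. At an adjusted p under 0.05, 2 genes passed (background 0.359%), Rpl8 and Rps9. In 12 genes every CIH 8W+Nor 4W array was below every CIH 8W array (background 3.58% in either direction).

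Rpl8 lies at the peptide-bond site of the 60S subunit. Its log2 signal was 12.87, 12.93, 12.87 and 12.61 in CIH 8W+Nor 4W, against 13.24, 13.30, 13.44, 13.12 and 13.34 in CIH 8W. The groups did not overlap, and the log2 difference was -0.47 ± 0.08 (SE, limma, adjusted p = 0.0113). Rps9 is a 40S protein near the mRNA entry channel. Its log2 signal was 6.43, 6.58, 6.51 and 6.54 in CIH 8W+Nor 4W, against 6.71, 7.07, 7.24, 6.87 and 7.10 in CIH 8W. These groups were separate too, and the log2 difference was -0.48 ± 0.10 (SE, limma, adjusted p = 0.0277). Rpl10a, a 60S protein, had log2 signals of 7.97, 8.02, 8.01 and 7.99 in CIH 8W+Nor 4W, against 8.09, 8.32, 8.53, 8.35 and 8.39 in CIH 8W. The 4 CIH 8W+Nor 4W arrays lay close together and below all 5 CIH 8W arrays, with a log2 difference of -0.34 ± 0.08 (SE, limma, adjusted p = 0.0736).

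Rpl35 is a 60S protein at the exit tunnel, with the tract shown above at its start. It had log2 signals of 15.23, 15.20, 15.36 and 15.08 in CIH 8W+Nor 4W, against 15.42, 15.65, 16.35, 15.57 and 15.81 in CIH 8W. Its log2 difference was -0.54 ± 0.16 (SE, limma, adjusted p = 0.150). A dimmer Rpl35 probe set, numbered on the chromosome of the RefSeq gene, differed by -0.32 and was called too. Rpl32l, a relative of Rpl32, had the largest log2 difference of the 46, -0.61 ± 0.17 (SE, adjusted p = 0.134). Its signals of 13.99, 13.80, 14.09 and 13.45 in CIH 8W+Nor 4W and 14.07, 14.48, 15.07, 14.35 and 14.25 in CIH 8W overlapped by 1 array. Rps18, the gene used by the study as the internal control of its quantitative PCR, fell by 0.18 ± 0.08 on the log2 scale (SE, limma, adjusted p = 0.348), with signals of 5.40, 5.55, 5.45 and 5.50 in CIH 8W+Nor 4W and 5.47, 5.71, 5.83, 5.57 and 5.67 in CIH 8W. These values overlapped, and the call was lost without CIH 8W replicate 3. The Rps18 probe set was dim, with a mean log2 signal of 5.55. On CIH 8W+Nor 4W replicate 4 it read 5.50, where the 95th percentile of background was 5.32. Whether the Rps18 mRNA measured by the quantitative PCR differed was not tested. Rps23rg1, a retrocopy of Rps23, had the highest log2 difference, 0.14 ± 0.09, and was not called.

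The size of this difference depended on the scaling and on a few CIH 8W arrays. With quantile normalization the median was -0.18, with 42 of 46 below 0. Without CIH 8W replicate 3, 18 genes were lower and the median was -0.20. Without the 5 arrays of strong sympathetic neuron signal, 10 genes were lower and the median was -0.14, still with 44 of 46 below 0. Rpl8, Rps9, Rpl10a, Rpl35 and Rpl32l were called in both settings that left out arrays. The 5 arrays include CIH 8W replicates 3 and 5, which had the highest ribosomal protein deviations of that group (0.60 and 0.25). They include no CIH 8W+Nor 4W or CIH 12W array. A smaller difference from CIH 8W thus followed from the choice of arrays, and this setting cannot tell the part of neurons. Cell type markers moved between the same groups: 5 of 10 smooth muscle genes were higher in CIH 8W+Nor 4W (list means 15.57 to 15.84, against 14.29 to 15.81 in CIH 8W), and 3 of 14 macrophage, 4 of 8 endothelial, 3 of 6 T cell and 1 of 10 brown adipocyte genes were lower. Of 12 skeletal and cardiac muscle genes 3 were higher, with a median log2 difference of 0.60 and list means of 6.00 to 7.19 in CIH 8W+Nor 4W and 5.07 to 6.14 in CIH 8W. Among the marker genes Tcap, of the sarcomere, alone passed an adjusted p under 0.05 (log2 difference 2.61 ± 0.54, SE, limma, adjusted p = 0.0363). White adipocyte, sympathetic neuron and B and plasma cell lists had 0 called by limma and 0 at an unadjusted p under 0.05. The sympathetic neuron genes still had a median log2 difference of -0.88, with 11 of 13 below 0. Their list means were 4.76 to 4.94 in CIH 8W+Nor 4W and ran more widely, from 4.87 to 7.62, in CIH 8W. Macrophage means were 10.36 to 11.46 in CIH 8W+Nor 4W and 10.33 to 13.40 in CIH 8W. The part of these cell types in the result was not tested.

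**Figure D3:**
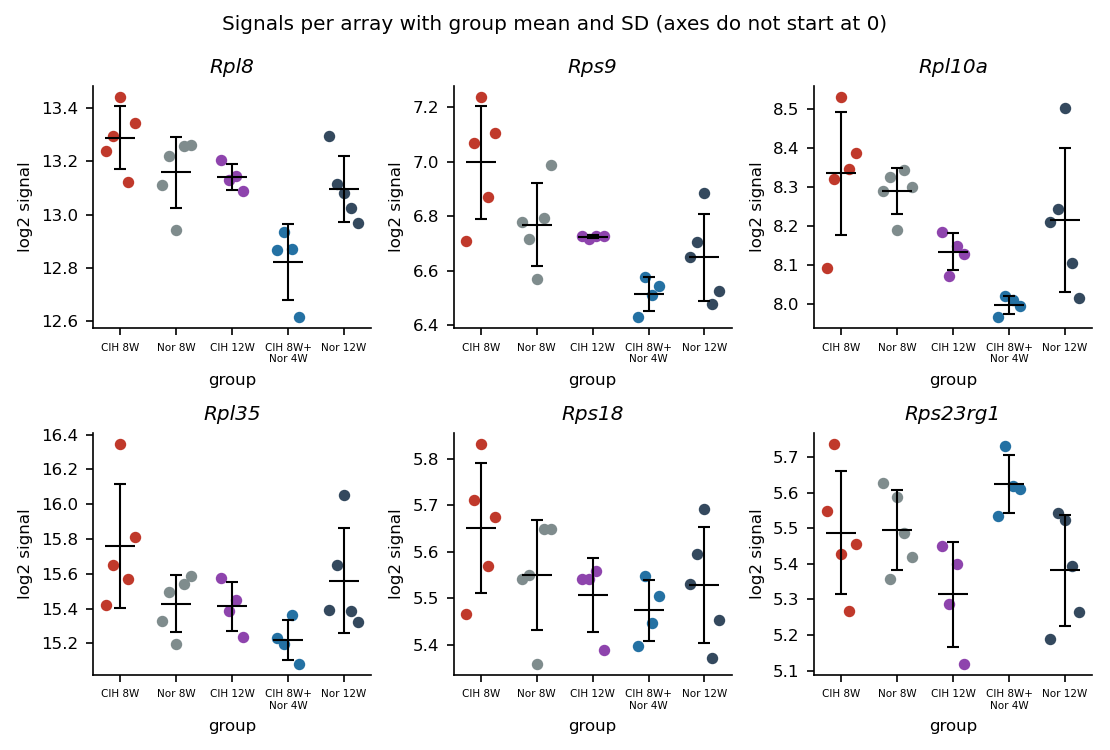
Log2 signals of 6 genes on each array (points) by group, with the group mean and SD (bars), on axes that do not start at 0. Rpl8, Rps9, Rpl10a and Rpl35 are lowest in CIH 8W+Nor 4W, where all arrays lie below the CIH 8W arrays, whereas Rps23rg1 is highest there.

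CIH 12W compared with CIH 8W moved in the same direction on a smaller scale. In CIH 12W 18 of 46 genes fell (39.1%, background 7.19%) and 0 rose (background 5.21%). Among genes with a mean over 8, 13 of 30 members fell and 0 rose, beside 733 and 970 of 6383 other genes. The median of the 46 genes was -0.20, beside -0.02 for all probe sets. By limma 0 genes passed an adjusted p under 0.05 (background 1.04%), and the 18 called were all those at an unadjusted p under 0.05. Groups were separate in 4 genes (background 3.96%). Rps9 had 6.73, 6.71, 6.73 and 6.73 in CIH 12W, against 6.71, 7.07, 7.24, 6.87 and 7.10 in CIH 8W, a log2 difference of -0.27 ± 0.10 (SE, limma, adjusted p = 0.200). The CIH 12W arrays were nearly identical and overlapped the lowest CIH 8W array only. CIH 12W replicates 1, 3 and 4 held the same Rps9 value, 6.7289. Such ties also crossed groups: Rps19 was 5.404 on CIH 12W replicates 1, 2 and 3 and on Nor 8W replicate 1. The cause of the ties was not tested. Rps3a3, a retrocopy of the 40S gene Rps3a1, was separate between the groups, and its log2 difference was -0.39 ± 0.15 (SE, limma, adjusted p = 0.238). The count was 3, 11 and 29 when CIH 8W replicates 3, 5 and 1 were left out one at a time, and 4 and 10 when CIH 12W replicates 4 and 2 were. With the 5 arrays of strong sympathetic neuron signal left out it was 1. The median was -0.13 without CIH 8W replicate 3 and -0.08 without those 5 arrays. Of the markers, 6 of 8 endothelial, 2 of 6 T cell, 2 of 7 B and plasma cell, 2 of 10 brown adipocyte and 2 of 8 white adipocyte genes were lower in CIH 12W. In the other direction, 4 of 10 smooth muscle, 2 of 12 skeletal and cardiac muscle and 1 of 8 white adipocyte genes were higher, and the part of these cell types was not tested. This comparison shares the CIH 8W arrays with the previous one.

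The study set CIH 8W beside Nor 8W to ask what hypoxia did at the shorter time. Here 3 of 46 genes rose, Rps9, Rps28 and Rpl35 (6.52%, background 3.99%), and 0 fell (background 2.47%). By limma 0 passed an adjusted p under 0.05 (background 0), 4 had an unadjusted p under 0.05, and 0 were separate between groups (background 0.631%). The share called was close to the background of all probe sets. Among genes with a mean over 8, 1 of 30 members rose and 0 fell, beside 664 and 252 of 6383 other genes. Of the 46 log2 differences 41 were above 0, with a median of 0.13, beside -0.00 for all probe sets. Above 0 were also 3753 of the 6383 other genes and 32138 of all 65956 probe sets. The members moved together, so their signs are not separate observations. Rps28, a small 40S protein, had 5.12, 5.29, 5.89, 5.25 and 5.69 in CIH 8W, against 5.23, 5.11, 4.92, 5.21 and 5.27 in Nor 8W. The groups overlapped, with 2 CIH 8W arrays high, and the log2 difference was 0.30 ± 0.13 (SE, limma, adjusted p = 0.696). Rps9 had 6.71, 7.07, 7.24, 6.87 and 7.10 in CIH 8W, against 6.78, 6.72, 6.57, 6.79 and 6.99 in Nor 8W, with overlap and a log2 difference of 0.23 ± 0.09 (SE, limma, adjusted p = 0.696). Rpl35 had 15.42, 15.65, 16.35, 15.57 and 15.81 in CIH 8W, against 15.33, 15.50, 15.20, 15.54 and 15.58 in Nor 8W, with overlap and a log2 difference of 0.33 ± 0.15 (SE, limma, adjusted p = 0.699), while its second probe set differed by 0.18 and was not called.

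The count of higher genes was 0 when any 1 of CIH 8W replicate 3, CIH 8W replicate 5 and Nor 8W replicate 3 was left out. It was 9, 6 and 10 on leaving out CIH 8W replicates 1, 2 and 4 in turn, and 5 on leaving out Nor 8W replicate 5. Without the 5 arrays of strong sympathetic neuron signal the median log2 difference turned to -0.03, with 15 of 46 above 0, and without CIH 8W replicate 3 alone it was 0.04. The 5 arrays include the highest CIH 8W arrays (replicates 3 and 5) and the lowest Nor 8W array (replicate 3) for ribosomal protein signal. A smaller difference thus followed from their choice. In the same comparison 10 of 14 macrophage, 3 of 8 endothelial and 1 of 6 T cell genes were higher in CIH 8W, and 2 of 10 smooth muscle and 2 of 12 skeletal and cardiac muscle genes were lower, and their part was not tested.

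CIH 12W vs. Nor 12W was the study's comparison for the longer exposure. Of 46 genes, 0 rose (background 4.29%) and 1 fell (2.17%, background 6.99%), with 0 at an adjusted p under 0.05 by limma (background 0.890%) and 1 at an unadjusted p under 0.05. Groups were separate in 4 genes, Rpl6l, Rpl11, Rps27l and Rps7 (8.70%, background 5.19%). The called gene was Rpl6l, a RefSeq pseudogene related to Rpl6. Its log2 signal was 12.09, 12.22, 12.10 and 11.40 in CIH 12W, against 12.49, 12.71, 12.60, 12.35 and 12.26 in Nor 12W. The log2 difference was -0.53 ± 0.18 (SE, limma, adjusted p = 0.229), and without CIH 12W replicate 4, the array at 11.40, it was -0.35 and was not called. The count was 2 without Nor 12W replicate 1, 4 or 5. The other 45 genes were not called, and the median difference was -0.08, beside -0.03 for all probe sets. When each array was centred on its own median the median became -0.02, with 31 of 46 below 0. In the deposited scaling, without Nor 12W replicate 3 the median was -0.02 with 18 of 46 above 0, beside -0.02 for all probe sets. Without CIH 12W replicate 4 it was -0.04, and without the 5 arrays of strong sympathetic neuron signal it was -0.03. Of the markers, 6 of 10 brown adipocyte, 6 of 8 white adipocyte, 2 of 8 endothelial and 1 of 12 skeletal and cardiac muscle genes were lower in CIH 12W, and 3 of 10 smooth muscle, 1 endothelial and 1 skeletal and cardiac muscle gene were higher. Their part was not tested.

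The comparison of CIH 12W with CIH 8W+Nor 4W set continued exposure beside a return to normoxia. Here 2 of 46 genes rose (4.35%, background 2.43%) and 1 fell (2.17%, background 3.90%). By limma 0 passed an adjusted p under 0.05 (background 0.0182%) and 3 had an unadjusted p under 0.05. The risen genes were Rpl8 and Rps19bp1. Rpl8 had 13.21, 13.13, 13.15 and 13.09 in CIH 12W, all above the 4 CIH 8W+Nor 4W arrays given above, with a log2 difference of 0.32 ± 0.09 (SE, limma, adjusted p = 0.338). Rps19bp1 had 7.19, 7.28, 7.03 and 7.21 in CIH 12W, against 7.05, 6.85, 7.12 and 6.67 in CIH 8W+Nor 4W, with overlap, and a log2 difference of 0.25 ± 0.11 (SE, limma, adjusted p = 0.667). It was not called without CIH 12W replicates 2 or 4 or CIH 8W+Nor 4W replicates 2 or 4. Rps23rg1 had 5.45, 5.29, 5.40 and 5.12 in CIH 12W, all below 5.53, 5.73, 5.62 and 5.61 in CIH 8W+Nor 4W, with a log2 difference of -0.31 ± 0.10 (SE, limma, adjusted p = 0.476). Groups were separate in 5 genes (10.9%, background 5.10%), Rpl8, Rpl10a, Rpl27 and Rps9 with CIH 12W above and Rps23rg1 with CIH 12W below. The median over the 46 genes was 0.06, beside -0.02 for all probe sets. With the 5 arrays of strong sympathetic neuron signal left out of the fit, none of which is in these groups, 6 genes were higher. Leaving out 1 array moved the median to 0.04 (CIH 12W replicate 3), 0.11 (CIH 12W replicate 4) or 0.09 (CIH 8W+Nor 4W replicate 2). Of the markers, 1 of 10 brown adipocyte and 1 of 12 skeletal and cardiac muscle genes were lower and 1 of 8 white adipocyte genes higher in CIH 12W, and their part was not tested.

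CIH 8W+Nor 4W vs. Nor 12W compared return to normoxia with normoxia throughout at the same total time, with the same CIH 8W+Nor 4W arrays as above. Of 46 genes, 1 rose (2.17%, background 4.14%) and 6 fell (background 5.23%). Among genes with a mean over 8, 0 of 30 members rose and 4 fell, beside 580 and 650 of 6383 other genes. For the members, 45 of 46 log2 differences were below 0, with a median of -0.16, beside -0.00 for all probe sets. Of the 6383 other genes 3422 were below 0. By limma 0 genes passed an adjusted p under 0.05 (background 0.300%), 7 had an unadjusted p under 0.05, and groups were separate in 2 genes, Rpl8 and Rps27l (background 4.45%). The 6 lower genes were Rps19bp1, Rpl8, Rpl10a, Rpl11, Rpl32l and Rpl35, and the higher gene was Rps23rg1. Rps19bp1 had 7.05, 6.85, 7.12 and 6.67 in CIH 8W+Nor 4W, against 7.39, 7.28, 7.45, 7.12 and 7.12 in Nor 12W, and fell by 0.35 ± 0.10 on the log2 scale (SE, limma, adjusted p = 0.185). Rpl8 had 12.87, 12.93, 12.87 and 12.61 in CIH 8W+Nor 4W, all below 13.30, 13.12, 13.08, 13.02 and 12.97 in Nor 12W, and fell by 0.28 ± 0.08 on the log2 scale (SE, limma, adjusted p = 0.187). Rpl11, a 60S protein that can bind the p53 regulator Mdm2, had 5.23, 5.49, 5.33 and 5.45 in CIH 8W+Nor 4W, against 5.49, 5.63, 5.74, 5.49 and 5.50 in Nor 12W. Its log2 difference was -0.20 ± 0.08 (SE, limma, adjusted p = 0.412). Without Nor 12W replicate 3 the count of lower genes was 2, and without Nor 12W replicates 4 or 5 it was 11. The median was -0.08, with 5 of 46 above 0, without Nor 12W replicate 3, and -0.11, with 41 of 46 below 0, without the 5 arrays of strong sympathetic neuron signal. The call of Rps23rg1 (log2 difference 0.24 ± 0.09, SE, limma, adjusted p = 0.368) was lost without Nor 12W replicate 1 or CIH 8W+Nor 4W replicate 2. Between these groups 4 of 10 brown adipocyte genes (median log2 difference -1.09), 2 of 8 white adipocyte genes (median -0.70) and 1 of 13 sympathetic neuron genes were lower in CIH 8W+Nor 4W. In the other direction, 3 of 12 skeletal and cardiac muscle genes (median 0.61) and 3 of 10 smooth muscle genes were higher, and the part of these cell types was not tested.

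Time under normoxia gave no call. In Nor 12W vs. Nor 8W 0 genes rose (background 4.21%) and 0 fell (background 3.11%), 0 were separate (background 1.54%), and by limma 0 had an adjusted (background 0.0440%) or an unadjusted p under 0.05. The median log2 difference was 0.01, beside 0.00 for all probe sets, and the 46 differences ran between -0.15 (Rpl22l1) and 0.21 (Rpsa). Leaving out Nor 12W replicate 3 gave 2 lower genes, leaving out Nor 12W replicate 4 or 5 gave 1 higher gene, and leaving out Nor 8W replicate 5 gave 2 higher genes. With the 5 arrays of strong sympathetic neuron signal left out, 5 were lower. The median lay between -0.06 (without Nor 12W replicate 3) and 0.06 (without Nor 12W replicate 5) as single arrays were left out, and was -0.07 without the 5 arrays. Of the markers, 3 of 8 white adipocyte and 2 of 14 macrophage genes were higher in Nor 12W, and 2 of 10 smooth muscle, 1 of 8 endothelial, 1 of 12 skeletal and cardiac muscle and 1 of 7 B and plasma cell genes were lower. Their part was not tested.

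The difference between the CIH effects at 12 and 8 weeks was tested as an interaction. It was called in 4 of 46 genes (8.70%, background 10.4%), Rpl12, Rpl35, Rpl38 and Rps27l, all with a lower effect at 12 weeks, and in 0 by limma at an adjusted p under 0.05 (background 0). Rps27l, a stress-related paralog of Rps27, had 9.29, 9.34, 9.40 and 9.30 in CIH 12W, against 9.41, 9.46, 9.83, 9.52 and 9.53 in Nor 12W, and 9.31, 9.36, 9.78, 9.52 and 9.70 in CIH 8W, against 8.98, 9.36, 9.22, 9.41 and 9.73 in Nor 8W. The log2 difference between its effects was -0.41 ± 0.17 (SE, limma, adjusted p = 0.414). The count of called genes was 0 without CIH 8W replicate 3 or Nor 12W replicate 3, and 16 without CIH 8W replicate 1. It was 1 or 2 without CIH 8W replicate 5, CIH 12W replicates 3 or 4 or Nor 8W replicates 2 or 3, and 11 without CIH 8W replicate 4 or Nor 12W replicate 5. With the 5 arrays of strong sympathetic neuron signal left out it was 0. Of the markers, the interaction was called lower in 7 of 14 macrophage, 4 of 8 endothelial, 3 of 10 brown adipocyte, 3 of 8 white adipocyte and 1 of 6 T cell genes and higher in 9 of 10 smooth muscle and 2 of 12 skeletal and cardiac muscle genes, and their part was not tested.

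**Figure D4:**
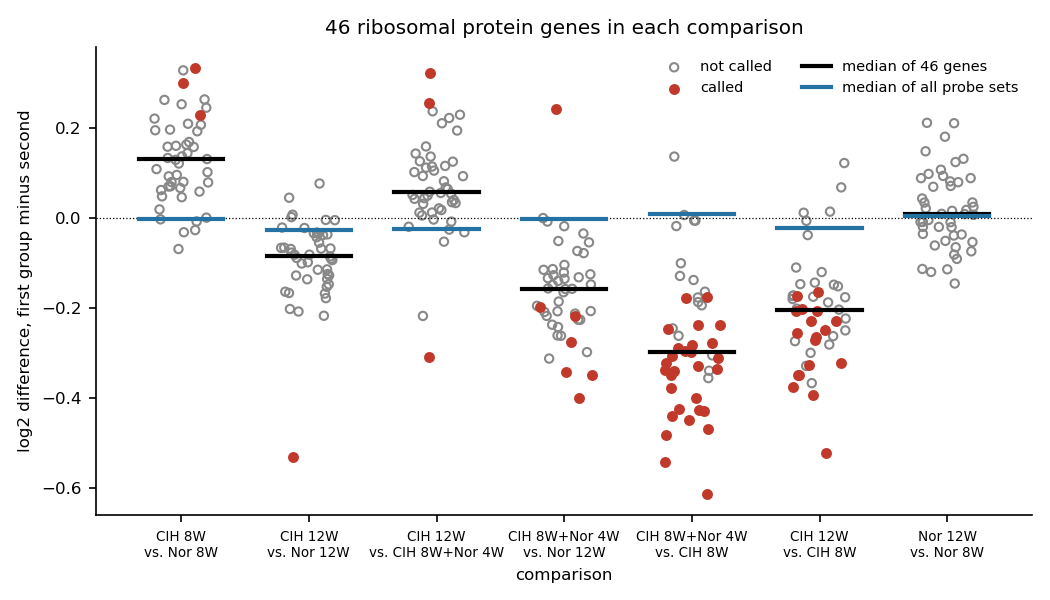
Log2 difference of each of 46 genes (points, red where called) in 7 comparisons, with the median of the 46 genes (black) and of all probe sets (blue). Red points are most frequent in CIH 8W+Nor 4W vs. CIH 8W (29) and CIH 12W vs. CIH 8W (18), all below 0, and absent in Nor 12W vs. Nor 8W.

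Rplp0, the base of the stalk, had 11.99, 12.24, 12.00 and 12.14 in CIH 8W+Nor 4W, against 12.19, 12.45, 12.56, 12.15 and 12.54 in CIH 8W and 12.30, 12.44, 12.53, 12.17 and 12.08 in Nor 12W. It was called only against CIH 8W (log2 difference -0.29 ± 0.10, SE, limma, adjusted p = 0.249). Rpl22l1, a paralog that can replace Rpl22, varied widely: its within-group SD was 0.283, and 9.31 in CIH 8W replicate 3 and 9.29 in Nor 12W replicate 3 stood above 7.95 to 8.88 on the other arrays. It was called in no comparison. Rpl7l1, Rpl37rt and Rps3a2 had means of 10.3, 11.7 and 16.2, and of these Rpl37rt fell by 0.30 and Rps3a2 fell by 0.44 on the log2 scale in CIH 8W+Nor 4W vs. CIH 8W. Among the 46 genes, within-group SDs were lowest for Rpl3l (0.0403), which was below background, Rps19 (0.0957) and Rpl4 (0.103). They were highest for Rpl6l (0.288), Rpl22l1 and Rpl41 (0.277).

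Probe sets that could not be assigned to 1 gene were read beside the members. Of the 53 probe sets with several ribosomal protein symbols, 35 were lower and 0 higher in CIH 8W+Nor 4W than in CIH 8W (median log2 difference -0.25). Of 209 ribosomal protein pseudogene probe sets, 135 were lower and 1 higher (median -0.34). The background was 6.78% lower and 5.10% higher. Both sets were read on the same arrays as the 46 genes and cannot be assigned to 1 copy, so they are not independent evidence. Fau, which encodes a fusion of a ubiquitin-like protein with the 40S protein Rps30 and falls outside the name rule, had a log2 difference of -0.65 ± 0.16 (SE, limma, adjusted p = 0.0896).

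Other genes of the translation pathway were read from lists chosen by function. Of 18 translation factors with TOP mRNAs 16 were measured, and 10 were lower (background 6.78%, and 791 of 6383 other genes with a mean over 8) and 0 higher in CIH 8W+Nor 4W than in CIH 8W, with a median of -0.29. Eif3l and Eif3f, subunits of initiation factor eIF3, had log2 differences of -0.53 ± 0.10 and -0.44 ± 0.09 (SE, limma, adjusted p = 0.0185 and 0.0314). Eif4b, a cofactor of the helicase eIF4A, had -0.55 ± 0.11 (SE, limma, adjusted p = 0.0288). Against Nor 12W, 3 of 16 were lower in CIH 8W+Nor 4W (background 5.23%) and 0 higher.

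Of 40 ribosome biogenesis factors listed, 38 were measured, and in CIH 8W+Nor 4W vs. CIH 8W 4 were higher (background 5.10%) and 2 lower (background 6.78%), with a median of 0.03. In CIH 12W vs. CIH 8W 14 were higher (background 5.21%, and 970 of 6383 other genes with a mean over 8) and 3 lower (background 7.19%), with 4 at an adjusted p under 0.05 (background 1.04%). Their median was 0.09, beside -0.20 for the ribosomal protein genes and -0.02 for all probe sets, and the difference between the lists was not tested. Rrp12, which acts in export and maturation of both subunits, had a log2 difference of 0.41 ± 0.07 there (SE, limma, adjusted p = 0.00482), and Nat10, which acetylates 18S ribosomal RNA, had 0.23 ± 0.04 (adjusted p = 0.00625). In CIH 12W vs. Nor 12W 9 were higher (background 4.29%, and 762 of 6383 other genes with a mean over 8) and 1 lower (background 6.99%). Nor 12W and Nor 8W are also 4 weeks apart, without CIH. There 10 of these factors were higher (background 4.21%, and 806 of 6383 other genes with a mean over 8) and 1 lower (background 3.11%). The median of the factors there was 0.13, so a rise with time was not particular to CIH. The 21 of 26 measured genes of translation initiation and its control had 2 higher and 3 lower in CIH 8W+Nor 4W vs. CIH 8W, with a median of 0.03. Eif4g2, an eIF4G-like protein, was higher by 0.28 ± 0.06 (log2 difference, SE, limma, adjusted p = 0.0445).

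**Figure D5:**
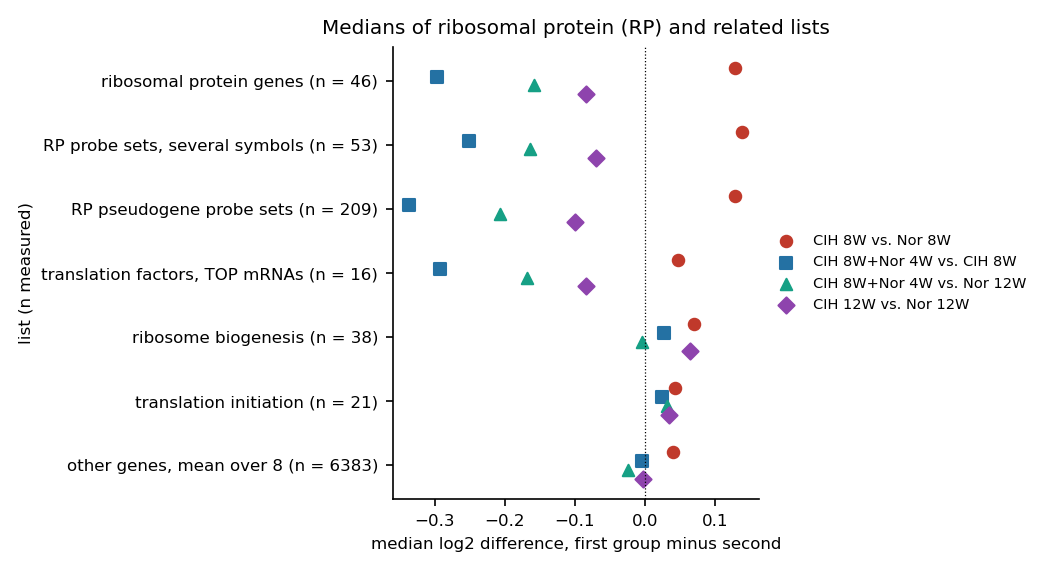
Median log2 difference of 7 lists (rows, with the number measured) in 4 comparisons (symbols). The ribosomal protein genes, their unassigned and pseudogene probe sets and the translation factors with TOP mRNAs lie between -0.34 and -0.25 in CIH 8W+Nor 4W vs. CIH 8W, while ribosome biogenesis and the 6383 other genes with a mean over 8 lie near 0.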

How the data were processed

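Total RNA of 23 mouse aortas was hybridised to Affymetrix Clariom D mouse arrays. The deposited values were log2 signals that the authors had already normalized, 1 column per array over 72688 probe sets. Affymetrix Expression Console is listed in the processing notes of the submitters, while the methods give Transcriptome Analysis Console for the normalization. Background correction and summarization were not given in the sources used here. After removal of 6732 control probe sets, 65956 gene-level probe sets remained. Probe sets were named through the platform annotation (30638 with 1 symbol, 2176 with several, 33142 unnamed) and gene positions through RefSeq GRCm38.p6. The number of arrays limits the precision.

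All 5 groups were fitted in 1 model with limma 3.58.1 in R 4.3.3 (lmFit, eBayes), with group means only and 5 contrasts, 1 interaction and a moderated F-test, plus 2 contrasts added after the F-test result was seen. The threshold for a call was an unadjusted p under 0.05 with a change of more than 1.1-fold, after the study's methods, and Benjamini-Hochberg adjustment ran over all 65956 probe sets. A pair of groups was separate where all values of 1 lay on 1 side of the other. Background was the 95th percentile of 23 background control probe sets on each array. The fit was tested on simulated data before use.

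Genes were named by rule: Rps18, Rplp0, paralogs and Rps19bp1, the 5 brightest and 3 dimmest members, up to 4 called per direction and comparison, those at adjusted p under 0.05, the 3 smallest F-test p, and the 3 largest and smallest within-group SDs. Other members were named after their values were seen. The 13 other lists held 182 genes, of which 164 were measured. Members, lists and tests were chosen with earlier results of these data known. Alternatives were a fit of 2 groups only, median centring, quantile normalization, trended and robust moderation, array weights, a filter on dim probe sets, averaging a gene's probe sets, a replicate block, a fold change over 1.5 and leaving out each array. P-values measure the spread between arrays, each labelled a biological replicate. Chosen after seeing the data were leaving out 5 arrays with a mean sympathetic neuron signal over 6 and levelling the other bright genes.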

Additional observations from a re-analysis of the deposited data

Results flagged for a closer look

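Of 130 sets of 1 gene in 1 group, 11 held an array far from the rest of its group by Dixon's test, and chance alone gives about 1 in 20. That share holds for independent sets, whereas these genes share the arrays and moved together. CIH 12W replicate 4 was the low array for Rps18 (5.39, the others 5.54 to 5.56), Rpl37rt (11.30, the others 11.65 to 11.69), Rpl6l (11.40, the others 12.09 to 12.22), Rps3a3 (15.22, the others 15.54 to 15.57), Rpl11 (5.27, the others 5.44 to 5.46) and Rps19 (5.25, the others 5.40). CIH 8W replicate 3 was the high array for Rpl22l1 (9.31, the others 8.55 to 8.77) and Rpl12 (17.71, the others 16.90 to 17.12). Nor 12W replicate 3 was the high array for Rps27l (9.83, the others 9.41 to 9.53). Rps9 in CIH 12W replicate 2 (6.71, the others 6.73) and Rps28 in CIH 12W replicate 3 (5.28, the others 5.20 to 5.21) stood apart only because the other arrays were nearly identical. In CIH 12W the other arrays were also nearly identical for Rps18 and Rpl11 and equal for Rps19, which makes a flag easier to reach.

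The CIH effect at 12 weeks was lower than at 8 weeks, by the interaction test at an unadjusted p under 0.05, for Rps27l (-0.41), Rpl12 (-0.40) and Rpl35 (-0.48) on the log2 scale. None passed an adjusted p under 0.05, and the count at the unadjusted p was 4 of 46.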

How the results depend on the processing

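Away from single arrays, the count of lower genes in CIH 8W+Nor 4W vs. CIH 8W (29) was 18 with quantile normalization, 1 at a fold change over 1.5 and 10 without the 5 arrays of strong sympathetic neuron signal. In CIH 12W vs. CIH 8W (18) it was 6 with 2 groups only, 7 with median centring, 9 with quantile normalization, 0 at a fold change over 1.5 and 1 without the 5 arrays. The higher count (3) for CIH 8W vs. Nor 8W was 0 with 2 groups only, at a fold change over 1.5 and without the 5 arrays. In CIH 12W vs. Nor 12W the lower count (1) was 3 with 2 groups only and 0 at a fold change over 1.5. The higher count (2) for CIH 12W vs. CIH 8W+Nor 4W was 5 with 2 groups only, 4 with median centring, 6 without the 5 arrays and 0 at a fold change over 1.5, where the lower count was 0 too. In CIH 8W+Nor 4W vs. Nor 12W the higher count (1) was 0 with the mean of all probe sets and at a fold change over 1.5, where the lower count was 0. In Nor 12W vs. Nor 8W the lower count (0) was 1 with quantile normalization, array weights or other bright genes levelled, and 5 without the 5 arrays. The interaction count (4) was 0 with median centring, quantile normalization, a fold change over 1.5 and without the 5 arrays, 2 with trended and robust moderation or dim probe sets left out, and 1 with array weights. The F-test count (13) was 8 with trended and robust moderation. The causes were not tested. Rpl4, the brightest member, turned in sign with quantile normalization, to 0.0289 against CIH 8W in CIH 8W+Nor 4W and to 0.0091 in CIH 12W, neither called.

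With each array left out in turn, the lower count for CIH 8W+Nor 4W vs. CIH 8W ran between 18 and 34, and the higher count between 0 and 1 (1 without CIH 8W replicate 2). For CIH 12W vs. CIH 8W the lower count ran between 3 and 29. CIH 8W vs. Nor 8W had higher counts between 0 and 10. CIH 12W vs. Nor 12W had lower counts between 0 and 2. Higher counts for CIH 12W vs. CIH 8W+Nor 4W ran between 1 and 2. CIH 8W+Nor 4W vs. Nor 12W had between 0 and 1 higher and between 2 and 11 lower. Nor 12W vs. Nor 8W had between 0 and 2 in each direction. The interaction count ran between 0 and 16 and the F-test count between 6 and 18. The remaining counts did not move.

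Same-numbered arrays of different groups shared only a number: over 43 such pairs their deviations correlated at -0.32 to 0.63, with 16 over 0.1. With the replicate number as a block the counts were 29 and 18 lower against CIH 8W, 4 higher in CIH 8W vs. Nor 8W, 7 lower in CIH 8W+Nor 4W vs. Nor 12W, 6 for the interaction and 12 for the F-test, none over 1.5 times from the fit without it.

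Rpl3l, Rpl39l and Rpl10l were above background on no array, so a difference in them was not detectable.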
